A study of Mus musculus with 6 samples.

Results

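The 8 genes described here, Tcp1, Cct2, Cct3, Cct4, Cct5, Cct6a, Cct7 and Cct8, encode the subunits of the chaperonin CCT, also called TRiC. They were taken by gene name from a table of 54532 genes measured by RNA sequencing in the hearts of 6 mice, and all 8 names were found once. The 3 control hearts (Ctrl) came from Mrps5 fl/fl mice, in which loxP sites flank part of Mrps5, a gene for a small-subunit protein of the mitochondrial ribosome. The 3 knockout hearts (cKO) came from Mrps5 fl/fl; MCM mice, which also carry a tamoxifen-inducible Cre recombinase (MerCreMer) driven by the cardiomyocyte promoter αMHC. Both groups received tamoxifen by intraperitoneal injection at 45 mg per kg per day for 5 days from 8 weeks of age, and heart tissue was taken 12 weeks later. The study's methods give another age at harvest than these labels imply.

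CCT is a barrel of a pair of stacked rings in the cytosol, and each ring holds 1 copy of each of the 8 subunits in a fixed order. It takes in newly made proteins, closes over them on binding and splitting ATP, and is best known for folding actin and tubulin, the building blocks of thin filaments and microtubules. The subunits share an ancestor but differ in the faces that touch the client and in their grip on ATP: the subunits encoded by Tcp1, Cct2, Cct4 and Cct5 bind it tightly, and those of Cct3, Cct6a, Cct7 and Cct8 more weakly. CCT works in the cytosol and is a distant relative of the chaperonin inside mitochondria, which is built of Hspd1 and Hspe1 products.

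The start regions of 4 of the genes are shown because they set out how CCT genes are laid out on the chromosome, a point that returns with the neighbouring genes. They were cut from RefSeq promoter windows of the mouse (build GRCm38.p6) and are written 5′ to 3′ on the strand of the CCT gene. The first 3 are the whole stretch between the annotated start of the CCT gene and the start of a gene that points the other way, and the last is the 150 bases before the start of Cct2. Capitals mark GGGCGG (the GC box), the CCAAT box or the core of ETS factor sites, which is CCGGAA, on either strand.
Cct3, chr3:88297000-88297115, plus strand: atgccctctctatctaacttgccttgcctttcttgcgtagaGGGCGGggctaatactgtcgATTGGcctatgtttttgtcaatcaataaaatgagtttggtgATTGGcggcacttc
Cct5, chr15:31601805-31601851, minus strand: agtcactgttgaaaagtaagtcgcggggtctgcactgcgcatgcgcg
Cct8, chr16:87495874-87495998, minus strand: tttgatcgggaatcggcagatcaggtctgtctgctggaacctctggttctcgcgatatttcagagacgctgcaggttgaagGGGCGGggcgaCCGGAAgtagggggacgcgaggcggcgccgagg
Cct2, chr10:117063815-117063964, minus strand: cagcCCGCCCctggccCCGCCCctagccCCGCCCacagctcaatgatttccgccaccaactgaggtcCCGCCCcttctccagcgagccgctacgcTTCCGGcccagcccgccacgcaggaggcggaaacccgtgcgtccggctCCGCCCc

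Before the values, 3 facts about the libraries bear on them. Reads assigned to genes ranged from 19464289 to 24875499 in Ctrl and from 15989322 to 23749804 in cKO, and cKO replicate 1 was the shallowest. Mrps5, the targeted gene, read 5.20, 6.45 and 6.33 FPKM (fragments per kilobase of gene, scaled to library size) in the Ctrl hearts and 1.12, 1.23 and 1.31 FPKM in the cKO hearts, so it separated the groups as labelled (log2 fold change -1.65, SE 0.0944, adjusted p = 0.000202 by limma over all genes tested). The study's methods speak of male mice, yet in cKO replicate 2 Uty, Ddx3y, Eif2s3y and Kdm5d of the Y chromosome were listed at 0 and Xist at 10.7 FPKM, against 0.00329 to 0.127 FPKM in the other 5 hearts. The CCT results are therefore also given without that heart. The tissue is a mixture of cells and Cre acts in cardiomyocytes, and fewer cells of a type and less RNA per cell cannot be told apart in such bulk samples.

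To ask whether the CCT genes differed between the groups, each gene was compared between the 3 Ctrl and 3 cKO hearts on the log2(FPKM + 1) scale. Only the cKO hearts carried MCM, so loss of Mrps5 and the activated Cre itself cannot be told apart. All 8 genes passed the filter on low values and all 8 were higher in the cKO hearts at an adjusted p under 0.05, where 16.3% of the 12944 genes tested were called higher. In all 8, every cKO heart lay above every Ctrl heart, which held for 24.8% of the genes tested. The ratio of group means ran from 1.32 for Cct7 to 2.12 for Cct3. The median log2 fold change was 0.74 over the 8 genes and -0.02 over all genes tested. For the CCT genes a log2 fold change of FPKM + 1 slightly understates the change of the FPKM values themselves. The understatement is larger for genes of low FPKM, some of which are described further below. The ratios of means carry no added 1.

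Among the subunits that bind ATP tightly, Tcp1 encodes CCT-alpha and sits in the t complex of mouse chromosome 17 that gave the family its name. It read 24.8, 26.3 and 24.8 FPKM in Ctrl and 37.5, 35.7 and 34.7 FPKM in cKO. The groups were well apart and both were tight, with means of 25.3 ± 0.885 and 36.0 ± 1.42 FPKM (SD, n = 3 each), a ratio of 1.42 and 0.49 as log2 fold change (SE 0.0686, adjusted p = 0.00322 by limma). Cct4 encodes CCT-delta, and a mutation of it in the rat causes a loss of sensory nerve function. It measured 28.9, 28.7 and 25.7 FPKM in Ctrl and 38.6, 37.9 and 37.2 FPKM in cKO. The 3 cKO hearts were nearly equal here, and the means were 27.7 ± 1.80 and 37.9 ± 0.723 FPKM (ratio 1.37, log2 fold change 0.44, SE 0.0739, adjusted p = 0.00591 by limma).

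The other tightly binding subunits moved further. Cct2 encodes CCT-beta, and variants of its human counterpart are linked to a childhood retinal disease. It read 47.0, 44.7 and 43.5 FPKM in Ctrl and 94.4, 74.4 and 78.7 FPKM in cKO. The first cKO heart was clearly the highest, and the cKO spread was the widest of the 8 genes: 45.1 ± 1.78 against 82.5 ± 10.5 FPKM, a ratio of 1.83 (log2 fold change 0.85, SE 0.102, adjusted p = 0.00212 by limma). Cct5 encodes CCT-epsilon, and its human counterpart is mutated in a hereditary sensory neuropathy. It measured 39.7, 44.7 and 38.0 FPKM in Ctrl and 86.9, 73.5 and 74.0 FPKM in cKO. Every cKO heart lay well above the Ctrl hearts, and the means were 40.8 ± 3.48 and 78.1 ± 7.64 FPKM (ratio 1.91, log2 fold change 0.92, 95% confidence interval 0.68 to 1.16, adjusted p = 0.00160 by limma).

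Among the subunits that bind ATP more weakly, Cct3, for CCT-gamma, had the largest change of the 8 genes. It read 17.2, 17.6 and 15.3 FPKM in Ctrl and 40.4, 33.0 and 32.8 FPKM in cKO. Its mean more than doubled, from 16.7 ± 1.24 to 35.4 ± 4.32 FPKM, or 1.04 as log2 fold change (SE 0.105, 95% confidence interval 0.79 to 1.28, adjusted p = 0.00142 by limma). Cct7, for CCT-eta, had the smallest change. It measured 20.0, 19.4 and 18.8 FPKM in Ctrl and 26.7, 25.9 and 23.9 FPKM in cKO. Its means were 19.4 ± 0.605 and 25.5 ± 1.43 FPKM and its log2 fold change 0.38 (SE 0.0722, interval 0.21 to 0.55, adjusted p = 0.00892 by limma). The intervals of Cct3 and Cct7 did not overlap.

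Cct8 and Cct6a lay between them. Cct8, for CCT-theta, read 44.1, 46.9 and 43.0 FPKM in Ctrl and 81.1, 71.9 and 68.7 FPKM in cKO, a rise of the mean from 44.7 ± 2.02 to 73.9 ± 6.44 FPKM (ratio 1.65, log2 fold change 0.71, SE 0.0861, adjusted p = 0.00217 by limma). Cct6a, for CCT-zeta, measured 22.3, 24.3 and 19.1 FPKM in Ctrl and 43.0, 35.3 and 36.2 FPKM in cKO. Its Ctrl hearts had the largest SD relative to the mean of the 8 genes (12.0%), with means of 21.9 ± 2.63 and 38.2 ± 4.23 FPKM (ratio 1.75, log2 fold change 0.78, SE 0.116, adjusted p = 0.00387 by limma). The changes did not divide by grip on ATP: the tightly binding subunits spanned ratios of 1.37 to 1.91 and the weakly binding ones 1.32 to 2.12.

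**Figure D1:**
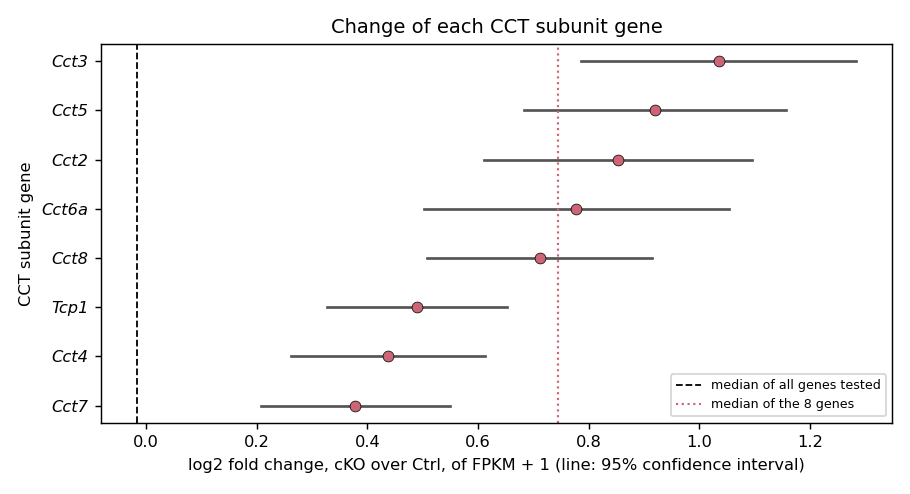
The log2 fold change of FPKM + 1, cKO over Ctrl, of each CCT subunit gene is on the horizontal axis, with its 95% confidence interval as a line. The dotted line is the median of the 8 genes (0.74) and the dashed line that of all 12944 genes tested (-0.02). All 8 intervals lie above 0, from Cct7 at 0.38 to Cct3 at 1.04.

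The calls held in each of the 15 other settings tried, apart from Cct6a where the table was limited to genes typed as protein-coding, since the table lists it as a processed transcript. The log2 fold changes ranged from 0.35 to 1.12 and the highest adjusted p was 0.0378, for Cct7. Without cKO replicate 2, the heart with Xist, all 8 genes were still called higher. cKO replicate 1 was the highest cKO heart for all 8 genes, as it was for 38.4% of the genes tested, and without it all 8 were again called. Ctrl replicate 3 was the lowest Ctrl heart in all 8. The share of all genes tested with that order was not computed, so it cannot be told apart from a shift of that library. Each value rested on 1537 to 5335 reads.

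Summed over the 8 genes, the CCT signal was 243.9, 252.7 and 228.1 FPKM in the Ctrl hearts and 448.7, 387.7 and 386.1 FPKM in the cKO hearts. The sum rose from 241.6 ± 12.5 to 407.5 ± 35.7 FPKM, 1.69-fold, with no overlap between groups. Part of the FPKM of a heart belongs to genes encoded in mitochondrial DNA, so the sum was also set against the rest. It made up 0.0900%, 0.0868% and 0.0830% of the FPKM outside mitochondrial DNA in Ctrl, and 0.173%, 0.146% and 0.148% in cKO. The groups stayed apart on that scale too.

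How much of each subunit there was relative to the others depends on the length by which reads are divided. The table's gene lengths count every annotated exon base, 6370 for Cct3 and 6778 for Cct7 but 2557 for Cct2, and on that scale the Ctrl means ran from 16.7 FPKM for Cct3 to 45.1 FPKM for Cct2, 2.70 times apart. Dividing the same reads by the length of 1 main transcript, 1977 bases for Cct3, 2441 for Cct7 and 1959 for Cct2, drew the genes together. This scale was chosen after the values were seen. For 7 genes the transcript is the one GENCODE marks as principal, but that of Cct6a (1599 bases) carries no such mark and is typed as a processed transcript, so the place of Cct6a in the orders rests on that length. On it the Ctrl means ran from 46.9 ± 3.04 for Cct4 to 60.9 ± 5.19 for Cct5, 1.30 times apart, in the order Cct5, Cct2, Cct8, Cct7, Cct3, Tcp1, Cct6a and Cct4. None of the 7 neighbouring pairs in that order was separated, since the 3 hearts of 1 gene overlapped the 3 of the next. The ratios of means are the same on either scale, because a gene's length is the same in every heart.

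In the cKO hearts the same transcript-length levels spread out. They ran from 64.1 ± 1.22 for Cct4 to 116.6 ± 11.4 for Cct5, 1.82 times apart, in the order Cct5, Cct3, Cct2, Cct8, Cct6a, Tcp1, Cct7 and Cct4. Gaps with no overlap fell between Cct6a (86.4 ± 9.57) and Tcp1 (74.0 ± 2.91), a gap that rests on the Cct6a transcript length, and between Cct7 (70.9 ± 3.97) and Cct4. The ratio of the highest to the lowest subunit gene within a heart was 1.26, 1.38 and 1.32 in Ctrl and 1.99, 1.71 and 1.76 in cKO. On the deposited lengths that ratio was 2.74 ± 0.0906 in Ctrl and 3.23 ± 0.334 in cKO, with a two-sided exact permutation p of 0.1, the smallest that 3 against 3 hearts can give.

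**Figure D2:**
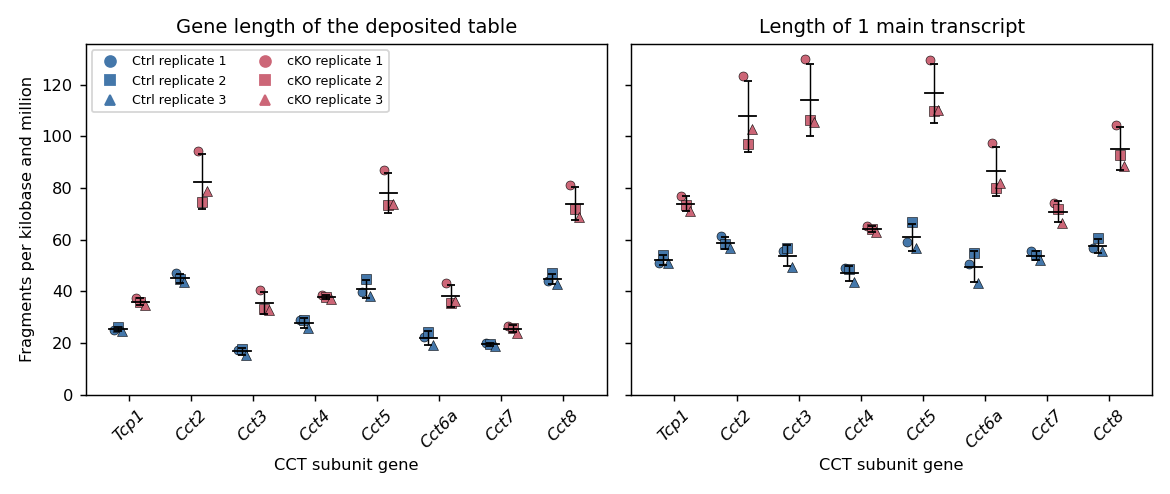
Level of each CCT subunit gene in each heart, in fragments per kilobase scaled to library size, by the gene length of the deposited table (left) and by the length of 1 main transcript (right). Points are hearts, horizontal bars are group means and error bars are SD (n = 3). On the right the Ctrl means lie within 46.9 to 60.9 and the cKO means within 64.1 to 116.6.

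The unequal changes were measured directly by taking each gene's log2 FPKM relative to the mean log2 FPKM of the 8 genes in the same heart. This cancels library scaling, and gene length cancels in the difference between the groups. Cct3 moved up by 0.36 on this scale, Cct5 by 0.22 and Cct2 by 0.15. Cct7 moved by -0.33, Cct4 by -0.27 and Tcp1 by -0.21. In these 6 genes the Ctrl and cKO hearts did not overlap, while Cct6a (0.08, exact p = 0.3) and Cct8 (0.00, exact p = 0.9) overlapped. How many genes of other sets of 8 would separate in this way was not computed, so the count has no background to be read against. Each of the 6 had the smallest p the design allows, 0.1 by a two-sided exact permutation test, and 0.133 after Benjamini-Hochberg adjustment over the 8, so none could pass 0.05. As shares of the summed FPKM, which depend on the deposited lengths, Cct3 took 6.70% to 7.06% in Ctrl and 8.49% to 9.0% in cKO. Cct7 took 7.69% to 8.23% in Ctrl and 5.96% to 6.68% in cKO. The 8 positions depend on one another, since a gain of one gene lowers the others, and the zero point is a choice: against the median of the 8 genes Tcp1 moved by -0.03, Cct7 by -0.14 and Cct3 by 0.55. The distance between Cct3 and Cct7 was 0.68 with either reference.

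**Figure D3:**
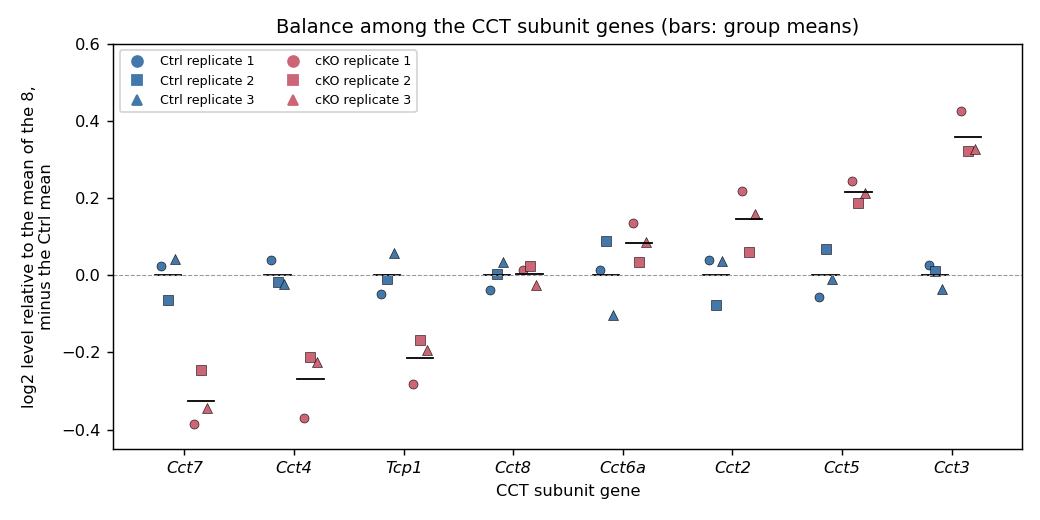
The log2 level of each CCT subunit gene relative to the mean of the 8 in the same heart, minus its Ctrl mean. Points are hearts and bars are group means. Cct7, Cct4 and Tcp1 lie lower in all cKO hearts and Cct2, Cct5 and Cct3 higher, from -0.33 for Cct7 to 0.36 for Cct3.

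Across the 6 hearts the 8 genes rose and fell together, with Pearson r of log2(FPKM + 1) from 0.966 to 0.997 over the 28 pairs. Much of that is the distance between the groups: for deviations from the group means, r ran from 0.425 to 0.955 with a median of 0.762. Points of these correlations share a library and its scaling. Of 5505 other protein-coding genes averaging 5 FPKM or more, 669 (12.2%) also had r above 0.95 with the mean of the CCT genes. The 8 genes most like that mean were Pole4, Pgam1, Atp13a3, Hspd1, Ipo5, Banf1, Cox19 and Angptl6, with r from 0.997 to 0.998 over 6 hearts. Hspd1 encodes the mitochondrial chaperonin, Ipo5 a nuclear import receptor and Pgam1 an enzyme of glycolysis.

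Several CCT genes lie close to another gene that runs the other way from nearly the same point, and the start regions printed above for Cct3, Cct5 and Cct8 are the gaps between such pairs. Tsacc, 116 bases from Cct3, stood at 0.989 ± 0.272 FPKM in Ctrl and 1.10 ± 0.164 FPKM in cKO (log2 fold change 0.08, adjusted p = 0.631 by limma). Fam173b, 47 bases from Cct5, measured 2.72 ± 0.481 and 3.22 ± 0.169 FPKM (log2 fold change 0.19, adjusted p = 0.230 by limma). Neither was called while its CCT partner was, and the difference in change between partners was not tested. B130034C11Rik, 125 bases from Cct8, had 6 to 15 reads a heart and was below the filter.

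At 3 further genes the annotated starts overlap, a set added after the values were seen. Psph, whose product makes serine in the last step of its synthesis, overlaps Cct6a by 452 bases. It read 0.824, 0.855 and 0.735 FPKM in Ctrl and 4.12, 2.19 and 3.00 FPKM in cKO, 3.86 times higher by the means (log2 fold change 1.16, SE 0.166, adjusted p = 0.00338 by limma). Both genes of this pair thus read higher in cKO, within the limit of shared reads given below. Mrpl18, for a protein of the large subunit of the mitochondrial ribosome, overlaps Tcp1 by 645 bases and went the other way. It read 47.8, 52.0 and 49.0 FPKM in Ctrl and 30.9, 34.1 and 33.5 FPKM in cKO (log2 fold change -0.58, SE 0.0738, adjusted p = 0.00249 by limma). Pradc1, beside Cct7, was not called (3.60 ± 0.231 and 3.98 ± 0.851 FPKM, log2 fold change 0.10, adjusted p = 0.589 by limma). No such neighbour was found for Cct2 or Cct4.

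Where exons overlap on opposite strands, reads of the pair cannot be told apart unless counting used strand, which is not stated in the sources used here. The shared exon bases were 12.5% of those of Cct6a (with Psph), 11.4% of those of Tcp1 with Acat3 and 2.80% with Mrpl18, 6.22% of those of Cct8 (with Usp16) and 3.16% of those of Cct7 (with Pradc1). Against these, Psph had 68 to 327 reads a heart beside the 1537 to 3295 of Cct6a. Acat3 had 0 to 7, while Mrpl18 had 732 to 1658 beside the 2381 to 4387 of Tcp1. How far reads of Cct6a entered the values of Psph was not tested. Cct2, Cct3, Cct4 and Cct5 shared no exon bases with another gene.

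Promoter windows of 250 bases before to 50 bases after the RefSeq start (GRCm38.p6) were found for 7 of the 8 genes, all but Cct4. The GC box GGGCGG was in the windows of all 7 genes on one strand or the other, against 35.7% of 32851 windows, and the ETS core CCGGAA in those of 5 genes (Cct2, Cct5, Cct7, Cct8 and Tcp1), against 14.9%. CCAAT was found in 4 (Cct3, Cct6a, Cct7 and Tcp1), against 37.4%. The windows of the CCT genes held 19 to 30 CG pairs, against a median of 7. The E-box CACGTG (7.15% of windows) and TGATGNAA, a form of the element bound by ATF4 with C/EBP (3.97%), were in no window of a CCT gene. Cct2 and Cct5 have 2 windows each, so they had more bases searched.

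A unit of the heat shock element, a pair of inverted NGAAN blocks searched as GAANNTTC and as TTCNNGAA, was in windows of Cct2, Cct5 and Cct6a, against 15.1% of all windows. HSF1, the main heat shock factor, is known to bind runs of at least 3 such blocks. The matches are shown with 10 bases on each side, in GRCm38 and on the strand of the gene, with the unit in capitals. Counted from the RefSeq start of its window, the unit begins at base 24 for Cct6a, -42 for Cct2 and -34 for Cct5. By their coordinates, the Cct6a and Cct2 matches lie within the annotated spans of their own genes and the Cct5 match within that of Fam173b. No match lies in a start region printed above. These letters are a description of the windows, and binding was not measured.
Cct6a, chr5:129787370-129787397, plus strand: cgtaagacttTTCGAGAAgaccccgcag
Cct2, chr10:117063400-117063427, minus strand: cccaagtgaaGAAGTTTCtagcaggacc
Cct5, chr15:31601863-31601890, minus strand: cagcggccgaTTCCAGAAgctactctgc

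The partners that hand clients to CCT were measured next. Prefoldin, the complex of 6 subunits that carries unfolded actin and tubulin to CCT, had 1 of its 6 genes called higher and none lower. Its median log2 fold change was 0.10. Of all genes tested, 16.3% were called higher and 17.0% lower, and these shares are the background for the counts of the lists and markers that follow. The called prefoldin gene was Pfdn6 (37.7 in Ctrl and 51.0 in cKO, log2 fold change 0.43, adjusted p = 0.00821 by limma). The values of the other prefoldin genes were 0.14 for Pfdn4, 0.11 for Pfdn2, 0.09 for Pfdn1, 0.03 for Vbp1 and -0.16 for Pfdn5. Of 4 cofactor genes tested, Pdcl, Pdcl3 and Txndc9 of the phosducin-like family and Pdcd5, none was called, with log2 fold changes of 0.03, 0.24, 0.23 and -0.03. When FPKM were rescaled without genes of mitochondrial DNA, Pdcl3 (0.32, adjusted p = 0.0218 by limma) and Txndc9 (0.30, 0.0215) were called higher, and Txndc9 was also called with voom on recovered reads (0.0386). Mkks and Bbs10, CCT-like proteins that help build the BBSome of the cilium, were not called either (0.04 and -0.23). The testis copies of the subunits stayed below the filter, with Cct6b at 0.112 to 0.177 FPKM in Ctrl and 0.0632 to 0.0916 FPKM in cKO and Cct8l1 at 0 to 0.0736 FPKM.

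The prefoldin-like and R2TP group, which shares subunits with prefoldin and helps assemble large complexes such as RNA polymerase II, had 3 of 7 genes called higher and 1 lower, with a median of 0.30. Ruvbl1, an ATPase of that complex, changed by 0.51 (adjusted p = 0.00302 by limma), Pih1d1 by 0.40 (0.0103) and Uri1 by 0.30 (0.0422), and Rpap3 by -0.30 (0.0257). Ruvbl2, Uxt and Pdrg1 were not called, at 0.35, 0.10 and -0.20. The calls of Uri1 and Rpap3 were each lost in 7 of the other settings (adjusted p up to 0.123 and 0.0876 by limma), among them every fit without 1 heart except cKO replicate 3 for Uri1 and cKO replicate 1 for Rpap3. Ruvbl2 was called without cKO replicate 1 (0.47, adjusted p = 0.0409) and after rescaling without genes of mitochondrial DNA (0.43, 0.0400).

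The client genes did not all move alike. Of 13 tubulin genes tested, 9 were called higher and none lower, with a median log2 fold change of 0.78. Tubb3 went from 0.737 to 9.96 FPKM, Tubb2a from 15.8 to 76.1, Tubb2b from 1.14 to 7.71 and Tubb6 from 20.0 to 52.3, with log2 fold changes of 2.59, 2.15, 1.98 and 1.33. The tubulin genes with the highest Ctrl means were not called: Tuba4a (135.1 to 153.7 FPKM, 0.24), Tubb4b (114.2 to 147.0, 0.36) and Tuba8 (101.7 to 105.0, 0.08). Summed over the list, the tubulins read 408.6 to 591.2 FPKM in Ctrl and 686.8 to 833.5 FPKM in cKO. The cofactors that finish tubulin after CCT had 5 of 6 genes called higher, with a median of 0.40. Tbcc led them (10.3 to 22.2 FPKM, 1.03), followed by Tbcb at 0.51, Tbce at 0.43, Tbcd at 0.37 and Tbca at 0.28. The call of Tbca was lost in 8 other settings, each fit without 1 heart among them (adjusted p up to 0.109 by limma), and that of Tbcd without Ctrl replicate 3 (0.0541), and Arl2 stood at 0.02.

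Of 5 actin genes, 3 were called higher and none lower, with a median of 0.47. Acta1, the skeletal muscle actin, went from 298.6 ± 62.5 to 1402 ± 872 FPKM (2.07 on the log2 scale, adjusted p = 0.00994 by limma). Its cKO hearts read 1073, 2391 and 743.1 FPKM, with cKO replicate 2, the heart with Xist, far the highest, and without it the change was 1.60 on the log2 scale (adjusted p = 0.00642). Acta2 of smooth muscle (18.7 to 36.0 FPKM, 0.89) and the cytoplasmic Actb (69.2 to 96.6 FPKM, 0.47) were also called. The Actb call was lost in 7 other settings (adjusted p up to 0.119 by limma), 5 of them fits without 1 heart (all but Ctrl replicate 1), and the Acta2 call in 6 (up to 0.133), 4 of them without Ctrl replicate 2 or 3 or cKO replicate 1 or 2. Actc1, the main actin of the heart, was not called, at 4750 ± 1128 and 4336 ± 1939 FPKM, nor was Actg1 at 0.40. Of 16 other proteins known to use CCT, 1 was called higher, Gnb1 (25.9 to 35.2 FPKM, 0.42), and 1 lower, Hdac3 (11.2 to 8.24 FPKM, -0.40). The Hdac3 call was lost without Ctrl replicate 1 (adjusted p = 0.0559 by limma) or Ctrl replicate 2 (0.0592).

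Other chaperones of the cytosol had 10 of 15 genes called higher and 1 lower, with a median of 0.63. The lower one was Fkbp4 (139.3 to 90.7 FPKM, -0.61 on the log2 scale, adjusted p = 0.00602 by limma). Hsp90ab1, with the highest level of the list, was not called (616.1 to 748.9 FPKM, 0.28, adjusted p = 0.0701 by limma). These genes were not followed over the other settings. Hsp90aa1, the inducible HSP90, went from 51.9 to 191.2 FPKM (1.87 on the log2 scale, adjusted p = 0.000839 by limma), and the stress-induced HSP70 genes Hspa1b and Hspa1a changed by 1.57 and 1.12 at means under 7 FPKM. The Hspa1a call was lost with no filter on low values (adjusted p = 0.0514 by limma) and without Ctrl replicate 2 (0.0584), Ctrl replicate 3 (0.0561), cKO replicate 1 (0.0518) or cKO replicate 3 (0.0510). Hspa1a and Hspa1b, like Tubb2a and Tubb2b, are close copies that can share reads, and how such reads were counted is not given in the sources used here. Stip1, which links the HSP70 and HSP90 chaperones, went from 54.2 to 109.4 FPKM (0.99). Among the chaperones that meet the chain at the ribosome, Btf3 (0.80) and Dnajc2 (0.70) were called and Naca (0.13) and Hspa14 (0.11) were not. The mitochondrial chaperonin group also holds Hspa9, which encodes the HSP70 of mitochondria and not a chaperonin subunit. All 3 genes of this group were called higher, Hspd1 (156.3 ± 12.7 to 304.1 ± 27.4 FPKM, 0.96), Hspe1 (103.2 to 201.1 FPKM, 0.96) and Hspa9 (230.1 to 435.9 FPKM, 0.92). Their folds lay within the range of the CCT genes, and no test of the lists against each other was made.

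**Figure D4:**
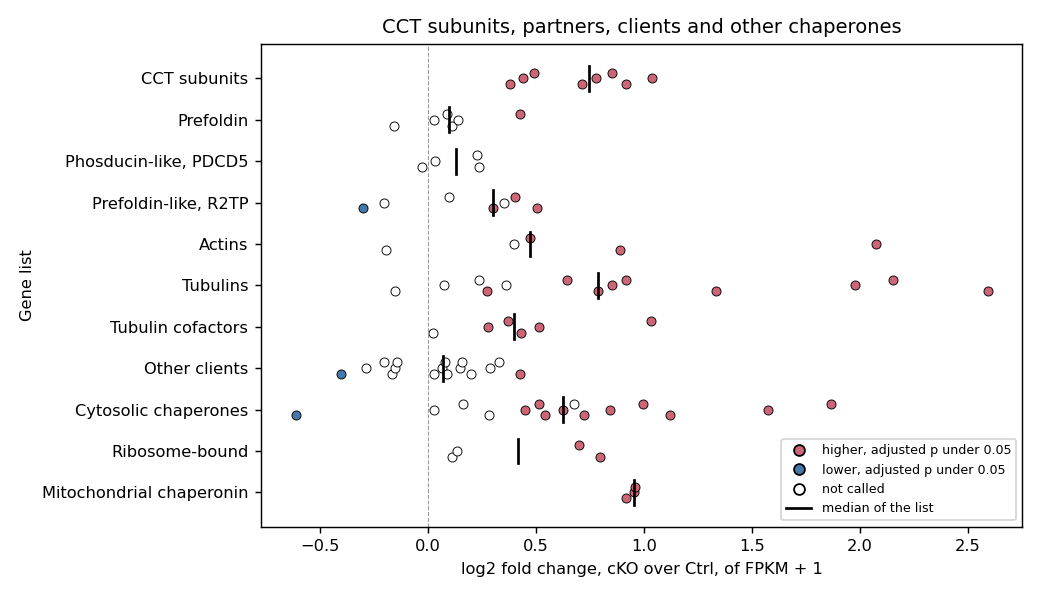
The log2 fold change of FPKM + 1 of each gene tested, by list, with called genes filled and the list median as a bar. All 8 CCT genes are called higher with a median of 0.74, beside 1 of 6 prefoldin genes with a median of 0.10. Of all genes tested, 16.3% were called higher and 17.0% lower. The mitochondrial chaperonin list includes Hspa9, for the HSP70 of mitochondria.

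Marker genes of the cells in heart tissue were read beside these results. Of 10 cardiomyocyte markers, 8 were called lower, and their summed level was 21209 to 25016 FPKM in Ctrl and 11509 to 15419 FPKM in cKO. Called lower were also 3 of 5 endothelial markers (108.6 to 126.8 against 71.2 to 86.0 FPKM), 2 of 4 mural markers (152.3 to 166.8 against 72.7 to 87.4 FPKM) and 1 of 4 macrophage markers (88.4 to 121.5 against 79.2 to 109.6 FPKM). Of 6 fibroblast markers 1 was called higher and 1 lower (150.4 to 175.4 against 136.9 to 149.7 FPKM), and no atrial or blood marker was called. Atrial markers summed to 127.8 to 2054 FPKM in Ctrl and 575.0 to 1675 FPKM in cKO. That list includes Nppa, which the paper also uses as a marker of hypertrophy. Nppa alone read 102.6 to 1062 FPKM in Ctrl and 469.2 to 1127 FPKM in cKO, so the sum does not follow the amount of atrium alone. Myl7 of the same list read 18.1 to 678.6 FPKM in Ctrl and 71.8 to 495.0 FPKM in cKO. The 5 proliferation markers were below the filter, at sums of 0.708 to 1.86 FPKM in Ctrl and 0.364 to 1.32 FPKM in cKO, and no marker was at 0 in all hearts. Their part in the CCT result was not tested.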

How the data were processed

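RNA from 3 Ctrl and 3 cKO mouse hearts had been poly-T selected and sequenced as read pairs. Per the labels and methods, the authors filtered the reads, aligned them with HISAT2 2.0.5, counted them per gene with featureCounts 1.5.0-p3 and deposited FPKM values with the gene length, 1 column per heart. The labels name mm9 as the build, but 53499 of the 54409 gene IDs shared with GENCODE mouse release 21 had the same start and end there, so coordinates are given in GRCm38. Strand use in counting is not given in the sources used here.

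FPKM times gene length gave whole reads for 100% of values (within 0.01 read). The library size behind the FPKM was 0.913 to 0.980 of the assigned reads in Ctrl and 1.06 in cKO.

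Genes averaging 0.5 FPKM or more (12944) were tested on log2(FPKM + 1) with limma 3.58.1 in R 4.3.3 (eBayes with trend) and Benjamini-Hochberg adjustment over all of them, called at 0.05. limma was checked on simulated data. Single values used two-sided exact permutation tests (scipy 1.17.1). Transcript lengths came from GENCODE mouse release 21 and promoter windows from RefSeq. Hearts are separate animals by label, and the labels give each a replicate number but no litter. The study's methods speak of littermate controls, so whether same-numbered hearts share a litter is not known.

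The CCT genes and the gene lists were chosen with earlier results of these data known. Named genes were the CCT genes and Mrps5, every gene of a list with at most 7 measured genes (otherwise the 4 called genes with the largest change), divergent neighbours within 1000 bases, and the 8 genes most like the CCT mean. Tuba4a, Tubb4b, Tuba8 and Hsp90ab1 were added for their high levels, and Fkbp4 as the only lower call of the cytosolic chaperones. Alternatives changed the pseudocount, filter, scaling, model, block, gene type and replicates.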

Additional observations from a re-analysis of the deposited data

How the results depend on the processing

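All 8 CCT genes kept their direction in the 15 alternatives run, and their calls in each where they were tested. The call count was 8 in every setting but the one of protein-coding genes, where it was 7 because Cct6a is typed otherwise. edgeR on recovered reads was not run. With voom on recovered reads, the CCT changes were 0.42 for Cct7 to 1.11 for Cct3. That fit was scaled by the median ratio of each heart's reads to the gene means over hearts. No fit scaled by the assigned totals was run. Leaving out 1 replicate gave 1400 to 1993 genes called higher (2110 with all) and 1434 to 2006 called lower (2205 with all), in fits of fewer samples; the fewest higher calls came without Ctrl replicate 3 and the fewest lower calls without Ctrl replicate 2. The gene lists then had 1 to 3 lower calls (3 with all), with 1 without Ctrl replicate 1 or Ctrl replicate 2. Calls split into 2110 higher and 2205 lower (48.9% higher), and into 2649 and 1621 (62.0% higher) when FPKM were rescaled without genes of mitochondrial DNA, which moved the median change over all genes from -0.02 to 0.05 on the log2 scale.

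Some genes that were not called changed sign. Pdcd5 went to 0.0576 under that rescaling. Over the fits without 1 replicate, Pfdn1 ranged from -0.0136 to 0.152, Vbp1 from -0.0302 to 0.0753, Pdcl from -0.0417 to 0.0954, Mkks from -0.0389 to 0.122, Actc1 from -0.537 to 0.0493, Arl2 from -0.0812 to 0.0927, Naca from -0.0444 to 0.232 and Pradc1 from -0.0107 to 0.239. The cause was not tested.

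A fit with a replicate block called 1874 genes higher and 1982 lower. In it all 8 CCT genes kept their calls, and of the genes named, Fkbp4 and Hsp90ab1 aside, the calls of Uri1, Actb, Acta2 and Tbca were lost. Same-numbered hearts deviated with correlations of -0.06, 0.18 and -0.01. Such values cannot settle whether the numbers pair animals, for example by litter, which the labels do not give. With 3 hearts a group, an exact test of one value cannot go below 0.1, which limits what can be said of the balance among subunits.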
